A study of Mus musculus with 6 samples.

Results

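The genes described here are 40 markers and receptors of the vascular wall, taken by mouse gene symbol from the 43629 genes counted in each left ventricle. They comprise surface, junction and receptor genes of endothelial cells, their transcription factors, a few ligands, and the mural cell genes Rgs5 and Pdgfrb. The libraries came from poly(A) RNA of the left ventricle of 6 male CD-1 mice aged 1 year. Their dams had been injected once a day with normal saline (vehicle, 3 hearts) or with 20 mg/kg caffeine (3 hearts) from embryonic day 6.5 to 9.5, although another field of the labels ends the exposure at day 10.5. The mice were thus exposed only in utero, and the sources used here do not give the dam of each heart, so hearts of the same litter are possible and p-values measure only the spread between these 6 hearts. The comparison asks whether the amount of vascular RNA in the adult ventricle differed after the exposure. In a piece of whole ventricle, fewer cells of a type and less RNA per cell cannot be told apart.

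Endothelial cells line every vessel of the heart and are held together by VE-cadherin and claudin-5 junctions. They take up growth cues through receptors for vascular endothelial growth factor (VEGF) and angiopoietins, while ETS and SoxF transcription factors keep their identity. Mural cells, the pericytes and smooth muscle cells, wrap the same vessels. Most ventricular RNA comes from cardiomyocytes, so endothelial transcripts are a small part of a library even where capillaries are dense.

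Total counts ran from 9228359 to 10483101 in the vehicle-treated hearts and from 7613011 to 9153997 in the caffeine-treated hearts, so each caffeine library was the shallower. Levels are given in CPM, counts scaled to a common library size with TMM factors between 0.94 and 1.07. A total of 3 counts, the least taken as detectable, corresponds to at most 0.394 CPM. All 40 genes passed the filter on low counts, the lowest count of any of them in any heart was 25, and every gene exceeded 1 CPM in every heart. Cardiomyocyte genes were abundant and atrial genes nearly absent. The 10 cardiomyocyte genes examined summed to between 66183 and 78452 CPM per heart, and the 4 atrial genes to at most 2.35 CPM.

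None of the 40 genes passed the thresholds in the caffeine-treated hearts, which were an adjusted p below 0.05 and a fold change above 1.5 in edgeR's quasi-likelihood test. Of all 13092 tested genes 14 did, or 0.107% (0.084% higher and 0.0229% lower). edgeR's exact test and DESeq2 also called 0 of the 40. At an unadjusted p below 0.05 there were 3 of the 40 (Flt1, Angpt1 and Apln), or 7.5%, with 1 positive and 2 negative values. The shares were 8.82% of all tested genes (4.42% higher and 4.4% lower) and 9.07% of those within the same range of mean level. The smallest adjusted p of a vascular gene was 0.446 in the quasi-likelihood test. Log2 fold changes, caffeine minus vehicle, ran from -0.40 to 0.44 with a median of 0.002, against 0.00088 over all tested genes. Positive values numbered 20 of the 40, beside 50.2% of all tested genes, and 31 lay within 0.2 of 0.

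The intervals were narrow. In 32 of the 40 genes the 95% interval of the log2 fold change lay wholly inside a 1.5-fold difference either way (0.58 on the log2 scale). Over all tested genes this held for 63%, and over the 10347 genes within the same range of mean level for 78.1%. For Pecam1 the interval allowed between 0.92-fold and 1.19-fold, for Esam between 0.861-fold and 1.1-fold, and for Cdh5 between 0.829-fold and 1.2-fold. The 8 genes whose intervals reached beyond 1.5-fold were Plvap, Angpt1, Angpt2, Sox7, Aplnr, Apln, Vwf and Icam1. For them the data leave a change of that size possible in at least 1 direction. Each interval stands for 1 gene and is not corrected for the number of genes.

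**Figure D1:**
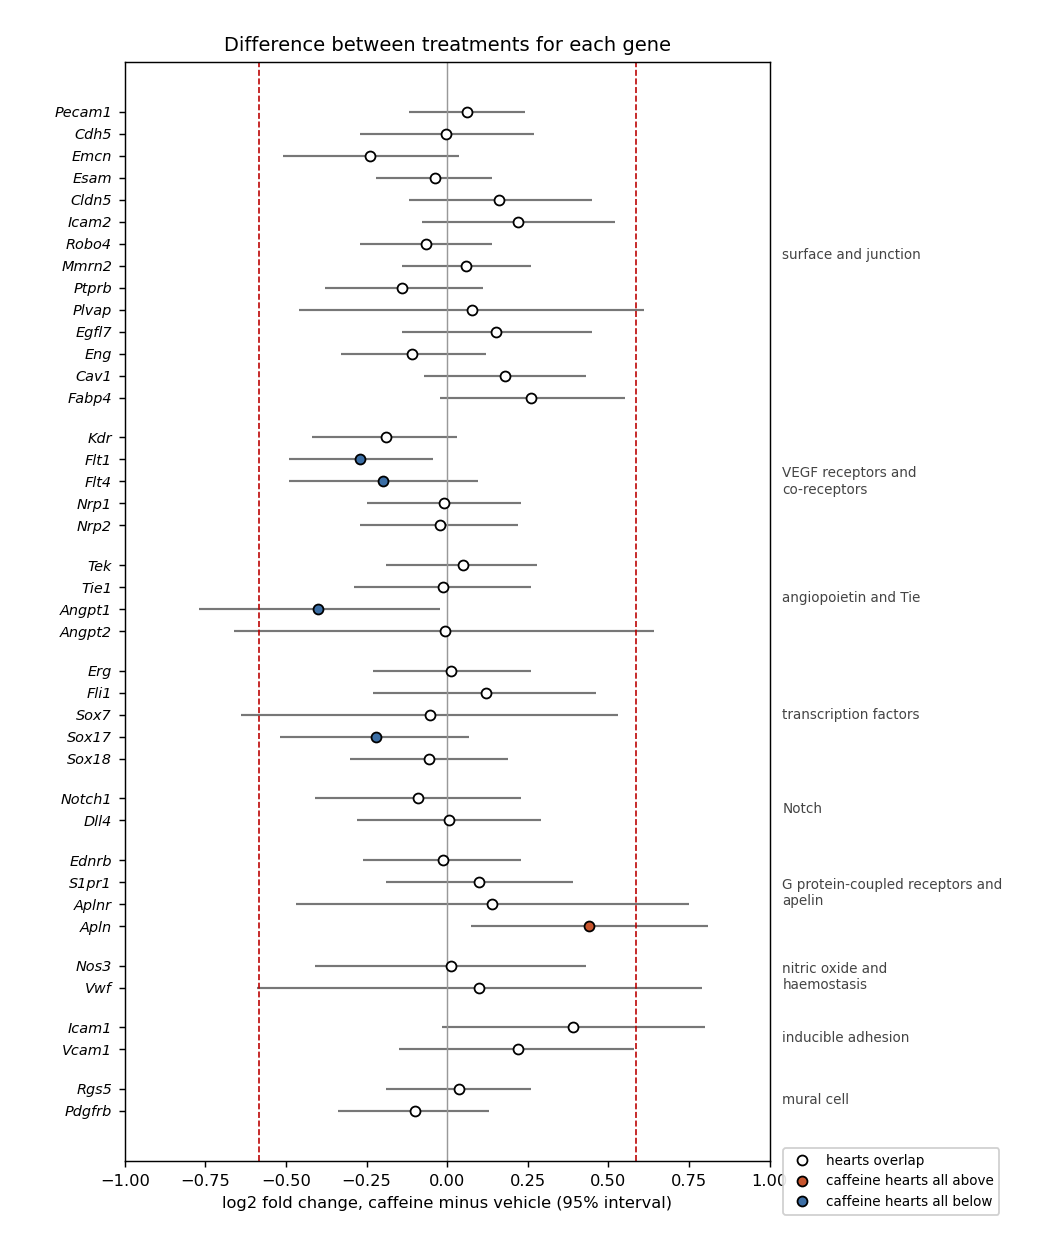
Log2 fold change (caffeine minus vehicle, horizontal axis) of each of the 40 genes, grouped by role, with its 95% interval from edgeR's quasi-likelihood fit of 3 against 3 hearts. Dashed lines mark a 1.5-fold difference, filled points mark the 5 genes whose hearts did not overlap between treatments, and 32 of the 40 intervals lie between the dashed lines.

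Summed over the 40 genes, the level was 4103, 4377 and 4543 CPM in the vehicle-treated hearts and 4692, 4419 and 4346 CPM in the caffeine-treated hearts. With 3 hearts each, the means were 4341 ± 222 CPM (SD) after vehicle and 4485 ± 182 CPM (SD) after caffeine, a ratio of 1.03, and the treatments overlapped. The sum leans on Fabp4 and Rgs5, and without these genes the ratio was 0.99, a check added after seeing the data. The vascular genes held between 0.401% and 0.486% of a heart's counts. Relative to each gene's mean over the 6 hearts, the median gene deviated most in vehicle replicate 1, by -0.083 on the log2 scale, with 12 of the 40 genes above their own mean. In caffeine replicate 3 the median was -0.049, with 13 above. In the other hearts the median lay between 0.0064 and 0.051, so each treatment held 1 heart with a negative median, the vehicle-treated one being the lower.

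**Figure D2:**
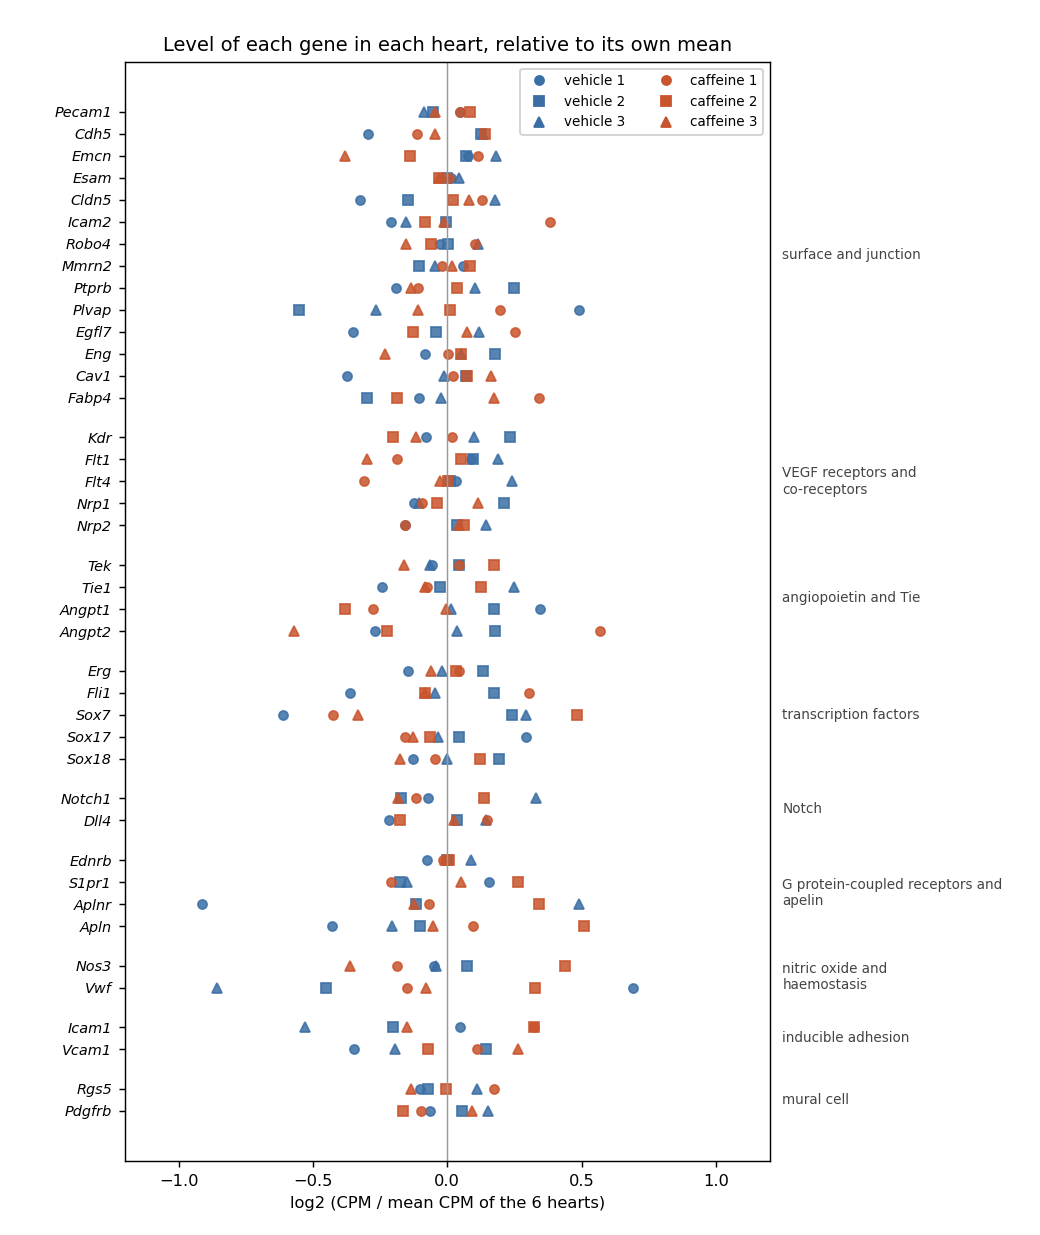
CPM of each of the 40 genes in each heart relative to the mean of the 6 hearts (log2 scale, horizontal axis), with colour for treatment and symbol shape for replicate. Points of both colours are mixed in most rows, and the widest rows are Vwf, Aplnr and Sox7.

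Per kilobase of mRNA, levels over the 6 hearts covered a wide range. The highest was Fabp4, a fatty acid carrier of capillary endothelium and adipocytes, at 938 CPM per kb. It was followed by Rgs5 at 183, Cav1, the main protein of caveolae, at 140, and Eng, a co-receptor for TGF-beta family ligands, at 85.7 CPM per kb. Pecam1, Cdh5, Sox18, Egfl7, Nrp1 and Esam lay close together, between 42.3 and 51.0 CPM per kb. The ligands Angpt1 and Angpt2 were lowest, at 2.07 and 1.22 CPM per kb, with the lymphatic receptor gene Flt4 just above them at 3.11 CPM per kb. Levels per kb rest on the longest annotated protein-coding transcript and would shift with another isoform.

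The spread between hearts of the same treatment also differed among the genes. Its SD on the log2 scale had a median of 0.17, as it did over all tested genes. Esam, an adhesion molecule of endothelial tight junctions, was among the steadiest genes of the ventricle, with an SD of 0.023 that was larger than that of only 0.16% of tested genes. Its level was 79.6, 78.8 and 81.4 CPM in the vehicle-treated and 79.2, 77.2 and 77.2 CPM in the caffeine-treated hearts. At the other end stood Vwf (0.59), Aplnr (0.51) and Sox7 (0.49), each with a larger SD than over 95% of tested genes. These genes were singled out after their values were seen.

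**Figure D3:**
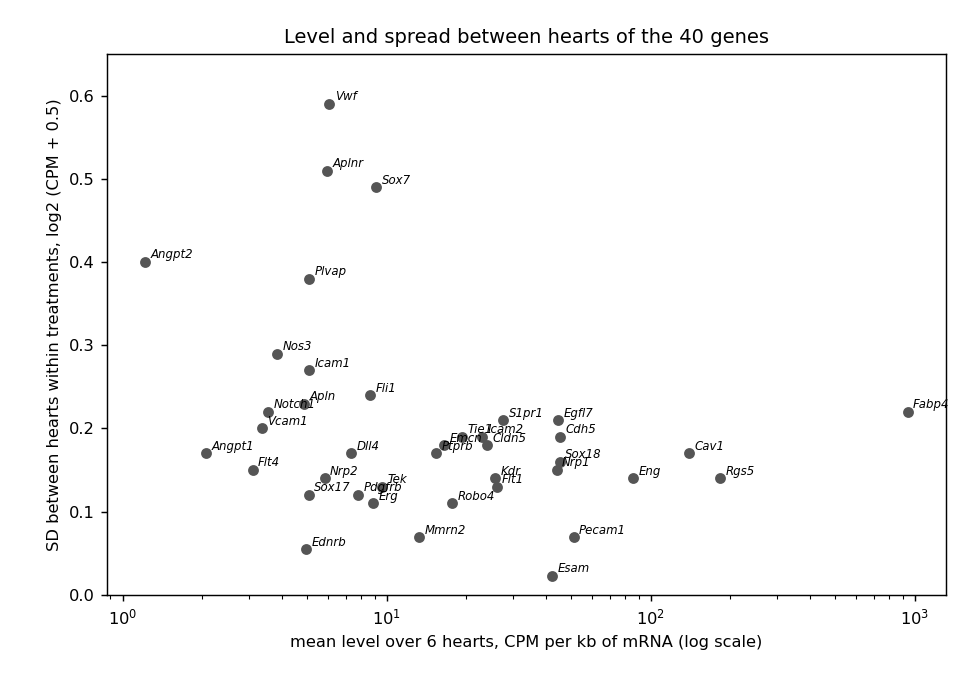
Mean level of each of the 40 genes over 6 hearts in CPM per kb of mRNA (log axis) against the SD between hearts within treatments (log2 scale). Esam and Pecam1 combine a high level with a small spread, while Vwf, Aplnr and Sox7 spread most.

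Among the surface and junction genes, 8 of 14 had positive and 6 negative log2 fold changes, between -0.24 (Emcn) and 0.26 (Fabp4), and the hearts of both treatments overlapped in all 14. Pecam1, the platelet and endothelial adhesion molecule on chromosome 11 (GRCm38, 106654217 to 106750628), read 181, 169 and 165 CPM in the vehicle-treated and 181, 186 and 170 CPM in the caffeine-treated hearts. The caffeine-treated hearts overlapped the vehicle-treated ones, and the log2 fold change was 0.062 (SE 0.083, adjusted p = 0.892 in edgeR's quasi-likelihood test). Cdh5 encodes VE-cadherin, the adhesion protein of endothelial adherens junctions, and lies on chromosome 8 from 104101625 to 104144511. Its levels were 148, 198 and 199 CPM after vehicle and 168, 200 and 176 CPM after caffeine. The lowest and nearly the highest heart were both vehicle-treated, and the log2 fold change was -0.0027 (SE 0.12, adjusted p = 0.998, same test).

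Fabp4 had the largest positive value of this group. It read 781, 684 and 827 CPM in the vehicle-treated hearts and 1065, 738 and 948 CPM in the caffeine-treated hearts. Caffeine replicates 1 and 3 lay above all vehicle-treated hearts and replicate 2 did not, and the log2 fold change was 0.26 (SE 0.13, adjusted p = 0.606). Adipocytes express this gene strongly as well. A list of 4 adipocyte genes chosen after seeing the data (Adipoq, Plin1, Cidec and Car3) summed to 4.98, 4.54 and 1.22 CPM in the vehicle-treated and to 1.12, 0.677 and 0.821 CPM in the caffeine-treated hearts. The part of such cells in the Fabp4 values was not tested. The further genes of the group were Emcn (-0.24), Ptprb (-0.14), Eng (-0.11), Robo4 (-0.066), Esam (-0.039), Mmrn2 (0.059), Plvap (0.076), Egfl7 (0.15), Cldn5 (0.16), Cav1 (0.18) and Icam2 (0.22), all as log2 fold changes with adjusted p of at least 0.636. Exons of Egfl7 and Eng overlap those of tested genes on the opposite strand (Agpat2 and Fpgs). Whether the counting used strand is not given in the sources used here.

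VEGF acts on endothelial cells mainly through Kdr (VEGFR2), the main signalling receptor, and Flt1 (VEGFR1), which binds VEGF-A more tightly and can act as a decoy, also as a secreted form. Flt4 (VEGFR3) is the receptor for VEGF-C and VEGF-D on lymphatic and some blood endothelium, and the neuropilins Nrp1 and Nrp2 are co-receptors. All 5 genes had negative log2 fold changes, between -0.27 and -0.0086, and none passed the thresholds. Summed, they gave 537, 616 and 583 CPM in the vehicle-treated hearts against 511, 533 and 517 CPM in the caffeine-treated hearts. The caffeine-treated hearts were all lower, with a ratio of means of 0.9. The gap was narrow, between 533 and 537 CPM, and the sums stayed apart with DESeq2-type size factors. They also did with library size alone. That scaling cannot test a lower sum, as it moved the median log2 fold change of all genes to -0.084. Leaving out a heart cannot test the separation either, as fewer hearts must overlap less. The negative sign of all 5 genes did not hold throughout: without vehicle replicate 2, vehicle replicate 3 or caffeine replicate 2 it held for 4 of the 5, and without caffeine replicate 1 for 3. The VEGF receptor sum was singled out after its values were seen. Among the sums by role, only this one and that of Icam1 and Vcam1 separated the treatments. The rest overlapped, as for the surface and junction genes (2227 to 2489 CPM after vehicle, 2406 to 2700 CPM after caffeine).

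Flt1 (chromosome 5, 147561604 to 147726011) read 191, 192 and 205 CPM after vehicle and 158, 186 and 146 CPM after caffeine. Every caffeine-treated heart was below every vehicle-treated heart, by a small margin for caffeine replicate 2. The log2 fold change was -0.27 (SE 0.10, interval -0.49 to -0.044), a level 0.832 times that of vehicle. Its unadjusted p was 0.023 and its adjusted p 0.446 in edgeR's quasi-likelihood test, and leaving out single hearts gave values from -0.37 to -0.19. Secreted and membrane forms come from the same gene and are not told apart by counts per gene.

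Kdr lies on the same chromosome (75932827 to 75978458) and read 145, 180 and 164 CPM in the vehicle-treated and 155, 133 and 141 CPM in the caffeine-treated hearts. Here vehicle replicate 1 fell among the caffeine-treated hearts, and the log2 fold change was -0.19 (SE 0.10, adjusted p = 0.633). For Flt4 the vehicle values were 19.9, 19.6 and 23.0 CPM and the caffeine values 15.7, 19.5 and 19.1 CPM. The treatments were separated by less than 1 CPM and overlapped with DESeq2-type size factors or without caffeine replicate 3, with a log2 fold change of -0.20 (SE 0.13, adjusted p = 0.729). Nrp1 (-0.0086) and Nrp2 (-0.023) were close to 0.

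Across the 40 genes the hearts did not overlap between treatments in 5, with 4 below (Flt1, Flt4, Angpt1 and Sox17) and 1 above (Apln) in the caffeine-treated hearts. That is 12.5%, beside 14.2% of all tested genes (7.11% above and 7.12% below) and 14.5% of those within the same range of mean level. For groups of this size the smallest p of a two-sided exact permutation test is 0.1. Hearts that do not overlap always give this value, so it adds nothing for the 5 genes.

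The sequences before the transcription start of 3 of these genes are shown, for the VEGF-A receptors Flt1 and Kdr and for Apln, the only gene of the 40 whose caffeine-treated hearts were all higher. They are 250 bases on the minus strand of GRCm38.p6 from RefSeq, chr5:147726012-147726261 for Flt1, chr5:75978456-75978705 for Kdr and chrX:48034854-48035103 for Apln. Capitals mark AGGAAG or its reverse complement CTTCCT, letters that contain the GGAA core bound by ETS factors such as Erg and Fli1.
Flt1: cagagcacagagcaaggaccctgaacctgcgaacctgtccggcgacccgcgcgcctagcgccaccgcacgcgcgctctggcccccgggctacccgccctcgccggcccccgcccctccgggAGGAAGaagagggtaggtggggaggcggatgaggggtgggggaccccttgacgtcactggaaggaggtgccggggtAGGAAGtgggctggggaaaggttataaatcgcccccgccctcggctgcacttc
Kdr: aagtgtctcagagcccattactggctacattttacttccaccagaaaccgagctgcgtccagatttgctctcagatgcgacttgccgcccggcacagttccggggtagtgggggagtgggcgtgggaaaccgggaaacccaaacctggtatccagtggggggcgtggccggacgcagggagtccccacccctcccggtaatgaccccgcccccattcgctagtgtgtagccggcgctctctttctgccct
Apln: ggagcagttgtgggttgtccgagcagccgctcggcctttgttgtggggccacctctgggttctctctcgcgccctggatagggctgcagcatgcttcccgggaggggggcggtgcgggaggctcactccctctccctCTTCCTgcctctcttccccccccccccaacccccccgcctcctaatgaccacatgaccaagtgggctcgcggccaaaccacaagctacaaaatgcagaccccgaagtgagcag
The last 3 bases shown for Kdr lie within an annotated exon of the gene, whose annotated start differs from that of RefSeq. Flt1 holds 2 matches to the marked run, Apln 1 and Kdr 0. The GGAA core alone also stands unmarked, on 1 strand or the other, in all 3 sequences, Kdr included. RefSeq promoter entries were matched for 20 of the 40 genes, and 8 of these 20 held AGGAAG or CTTCCT, against 29.2% of all genes with an entry. A match is only a run of letters, and binding was not measured.

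The angiopoietin system steadies vessels: Angpt1 from mural and other perivascular cells activates the receptor Tek (Tie2), Angpt2 from endothelium can oppose it, and Tie1 is the partner of Tek. Angpt1 had the most negative value of all 40 genes. It lies on chromosome 15 from 42424723 to 42676977 and read 11.2, 9.94 and 8.91 CPM in the vehicle-treated and 7.28, 6.77 and 8.80 CPM in the caffeine-treated hearts. The highest caffeine-treated heart was just below the lowest vehicle-treated heart, and the log2 fold change was -0.40 (SE 0.17, interval -0.77 to -0.023, unadjusted p = 0.0395, adjusted p = 0.548 in edgeR's quasi-likelihood test). In DESeq2 its unadjusted p was 0.106.

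The receptor genes lay closer to 0. Tek read 43.0, 46.2 and 42.8 CPM after vehicle and 46.1, 50.5 and 40 CPM after caffeine, with the extremes on both sides in caffeine-treated hearts and a log2 fold change of 0.049 (interval -0.19 to 0.28). Tie1 read 69.1, 80.3 and 97.1 CPM and 77.7, 89.2 and 77.3 CPM in the same order, fully interleaved, with a log2 fold change of -0.013 (interval -0.29 to 0.26). For the weakly expressed Angpt2 the values were 3.61, 4.92 and 4.46 CPM in the vehicle-treated and 6.44, 3.72 and 2.93 CPM in the caffeine-treated hearts. Caffeine replicate 1 was highest and replicate 3 lowest of all 6, and the interval of -0.66 to 0.64 was too wide to bound a 1.5-fold difference.

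The ETS factors Erg and Fli1, which keep endothelial genes active, had log2 fold changes of 0.013 and 0.12, and the SoxF factors Sox7, Sox17 and Sox18 had -0.053, -0.22 and -0.055. Sox17, a factor of arterial endothelium on chromosome 1 (4490931 to 4497354), read 20.1, 16.9 and 16.0 CPM in the vehicle-treated and 14.7, 15.7 and 15 CPM in the caffeine-treated hearts. All caffeine-treated hearts were lower, the nearest by less than 1 CPM, and the adjusted p was 0.676 (SE 0.13). Sox7 varied more within treatments than between them, at 19.7, 35.6 and 36.9 CPM after vehicle and 22.4, 42.1 and 23.9 CPM after caffeine. In the arterial Notch pair, the receptor Notch1 had a log2 fold change of -0.092 and its ligand Dll4 of 0.0066, with intervals inside 1.5-fold.

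Apelin, the peptide encoded by Apln, is made by sprouting and stressed endothelium and acts through the receptor Aplnr. Apln lies on the X chromosome from 48025146 to 48034853 and read 11.4, 14.3 and 13.3 CPM in the vehicle-treated and 16.4, 21.8 and 14.8 CPM in the caffeine-treated hearts. Every caffeine-treated heart was higher, caffeine replicate 2 most clearly. The log2 fold change of 0.44 was the largest of the 40 genes (SE 0.17, interval 0.075 to 0.81, a fold of 1.36), with an unadjusted p of 0.0228 and an adjusted p of 0.446 in edgeR's quasi-likelihood test. Without caffeine replicate 2 it was 0.26, and the hearts overlapped when scaled by library size alone.

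Its receptor gene Aplnr read 11.7, 20.3 and 30.9 CPM after vehicle and 21.0, 27.9 and 20.2 CPM after caffeine. Vehicle replicate 1 was the lowest and vehicle replicate 3 the highest, so the vehicle-treated hearts alone spanned the whole range (log2 fold change 0.14, interval -0.47 to 0.75). S1pr1, the sphingosine 1-phosphate receptor that maintains barrier function, and Ednrb, the endothelin receptor that releases nitric oxide in endothelium, had values of 0.1 and -0.013. Ednrb, singled out after its values were seen, was also very steady, at 19.4, 20.4 and 21.7 CPM in the vehicle-treated and 20.2, 20.5 and 20.3 CPM in the caffeine-treated hearts.

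Nos3, the endothelial nitric oxide synthase on chromosome 5 (24364810 to 24384474), read 15.4, 16.8 and 15.5 CPM in the vehicle-treated hearts and 14.0, 21.6 and 12.4 CPM in the caffeine-treated hearts. The caffeine-treated hearts lay on both sides of the vehicle-treated ones, with a log2 fold change of 0.011 (SE 0.19, adjusted p = 0.993). Vwf encodes von Willebrand factor, the clotting protein stored in endothelium of larger vessels and endocardium. It read 86.6, 39.2 and 29.6 CPM after vehicle and 48.3, 67.2 and 50.7 CPM after caffeine. Vehicle replicate 1 was the highest of all hearts and the other vehicle-treated hearts were the lowest. The log2 fold change was 0.099 (interval -0.59 to 0.79) and became 0.69 without vehicle replicate 1 and -0.18 without vehicle replicate 3.

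Icam1 and Vcam1 are adhesion molecules that inflammatory signals induce on endothelium and that leukocytes bind. Icam1 read 13.3, 11.2 and 8.91 CPM in the vehicle-treated and 16.1, 16.1 and 11.6 CPM in the caffeine-treated hearts. Caffeine replicates 1 and 2 were above all vehicle-treated hearts and replicate 3 was not, giving a log2 fold change of 0.39 (SE 0.18, unadjusted p = 0.0583, adjusted p = 0.588, edgeR quasi-likelihood test). Vcam1, at 9.18, 12.9 and 10.2 CPM after vehicle and 12.6, 11.1 and 14.0 CPM after caffeine, overlapped as well, with 0.22 (SE 0.17, adjusted p = 0.774). Summed, the 2 genes gave between 19.1 and 24.0 CPM in the vehicle-treated and between 25.6 and 28.7 CPM in the caffeine-treated hearts. This sum was singled out after its values were seen.

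Both genes are also expressed outside endothelium, and the levels of other cell types are given beside them. The 8 fibroblast genes summed to between 1707 and 2062 CPM in the vehicle-treated and between 2142 and 2658 CPM in the caffeine-treated hearts, with positive log2 fold changes in 8 of 8. The 8 macrophage genes summed to between 205 and 314 CPM and between 238 and 474 CPM, also positive in 8 of 8. None of these 16 genes passed the thresholds in the quasi-likelihood test on the filtered genes. Without the filter Col3a1 and Adgre1 passed, and the part of fibroblasts and macrophages in the values of Icam1 and Vcam1 was not tested.

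Both mural genes among the 40 had intervals inside 1.5-fold. Pdgfrb, the receptor for platelet-derived growth factor B on pericytes and fibroblasts, read 40.5, 44.0 and 47.0 CPM in the vehicle-treated and 39.5, 37.7 and 45.1 CPM in the caffeine-treated hearts, with a log2 fold change of -0.10 (SE 0.11, adjusted p = 0.842). Rgs5, a G protein regulator abundant in pericytes, had 0.036 (interval -0.19 to 0.26). Among 10 further mural cell genes 0 passed the thresholds, 6 had positive and 4 negative values, and 5 intervals lay inside 1.5-fold. The values ran from -0.49 to 0.13 with a median of 0.024. The negative ones were the smooth muscle contractile genes Cnn1 (-0.49), Myh11 (-0.41) and Acta2 (-0.31) and the mural Notch receptor gene Notch3 (-0.20). Tagln, also a smooth muscle gene, went the other way, with the largest positive value of the list (0.13). Notch3 and Tagln were named after their values were seen. Cnn1 was weakly expressed, between 0.662 and 3.42 CPM, with an interval of -1.70 to 0.73.

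Other genes of the vasculature gave a like picture. Of 24 further endothelial genes, 15 had positive and 9 negative log2 fold changes with a median of 0.06, and of 20 vascular ligands and further receptors, 9 were positive and 11 negative with a median of -0.018. In both lists 0 genes passed the thresholds, and 1 gene each had an unadjusted p below 0.05. These were Cd34, a surface sialomucin of capillary endothelium and of progenitor and stromal cells, with 0.37, and Vegfd, a ligand of Flt4, with 0.56. Their adjusted p was 0.343 and 0.527 in edgeR's quasi-likelihood test. Cd34 read 123, 167 and 154 CPM after vehicle and 204, 175 and 194 CPM after caffeine, with an unadjusted p of 0.00872 (same test). Every caffeine-treated heart was thus higher for Cd34, as in 7.11% of all tested genes, while the hearts overlapped for Vegfd. Vegfa, the main ligand of Kdr and a ligand of Flt1, named here for that role, had 0.081 (SE 0.21). Summed over the 24 genes, levels averaged 5071 ± 182 CPM (SD, n = 3) after vehicle and 4975 ± 292 CPM (SD, n = 3) after caffeine, a ratio of 0.981. Of 11 arterial, venous and endocardial genes 8 were tested, with a median of -0.037, and of 5 lymphatic genes 4 were tested, with a median of 0.045. The venule genes Selp and Ackr1 stayed below 1 CPM, and Ccl21a had no count in any heart. These genes were named after their values were seen.

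**Figure D4:**
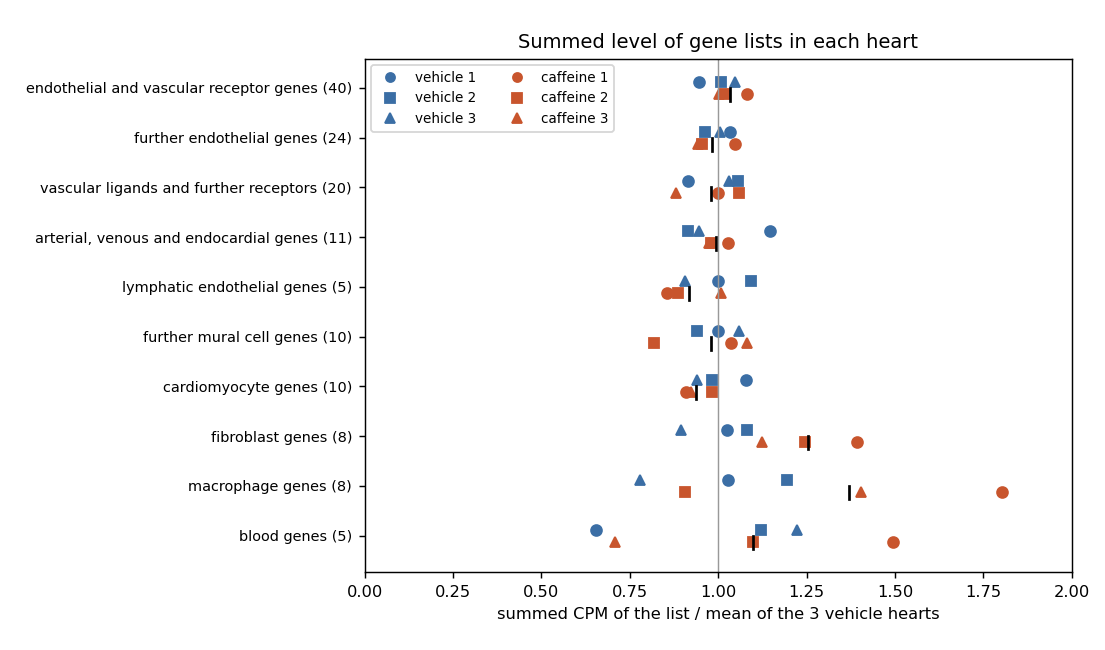
Summed CPM of each gene list in each heart divided by the mean of the 3 vehicle-treated hearts (horizontal axis), with colour for treatment, symbol shape for replicate and a black bar for the caffeine mean. The 40 vascular genes and the 24 further endothelial genes stay near 1 (caffeine ratios 1.03 and 0.981), while the fibroblast and macrophage sums have ratios of 1.25 and 1.37.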

How the data were processed

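Poly(A) RNA of left ventricles was sequenced as single-end libraries. The deposited values are raw counts per Ensembl gene, 1 file for each heart, not normalized or pooled. Per the study's methods the authors cleaned reads with FastQC, mapped them to mm10 (GRCm38) with TopHat2 and counted them with HTSeq on Ensembl annotation. The versions of these tools and the strand setting are not given in the sources used here. No count fell on the 37 mitochondrial genes.

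Symbols, positions and mRNA lengths came from GENCODE (mouse M series, GRCm38), which matched all 40 genes. Genes passing filterByExpr (minimum count 10, minimum total 15) numbered 13092. TMM factors were computed, and glmQLFit and glmQLFTest of edgeR 4.0.16 were run under R 4.3.3, with treatment as the only term. Adjusted p-values are Benjamini-Hochberg values over all tested genes, at the study's thresholds (0.05 and 1.5-fold). With edgeR at these thresholds the study reported more genes than were called here, without naming the test or the filter. Gpihbp1, of the further endothelial list, was among them and was not called here. The biological coefficient of variation was 12.1%. The SE is the absolute log2 fold change over the square root of F, and 95% intervals use the fitted degrees of freedom. SDs within treatments use log2 of CPM plus 0.5. The script was tested on simulated data. Replicates differed by more than sampling noise (5.71 to 15.1 as chi-square over its degrees of freedom), so each heart counts as 1 sample. Exact permutation tests used all 20 labelings. Counting error limits precision at 3 counts, between 0.286 and 0.394 CPM per heart.

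The members, lists and tests were chosen with earlier results of these data known. Values per heart are given for genes past the thresholds, genes whose hearts did not overlap, the 5 largest absolute log2 fold changes and a fixed set of 14 genes by role (Pecam1, Cdh5, Kdr, Flt1, Tek, Tie1, Nos3, Vwf, Angpt1, Angpt2, Apln, Icam1, Vcam1 and Pdgfrb). Alternatives were DESeq2 1.42.0, edgeR's exact test, no filter, size factors of the DESeq2 type, scaling by library size alone, a block for the replicate number, and each heart left out. Added after seeing the data were the sums by role and the sum without Fabp4 and Rgs5. Scaling by library size alone was also added then, except for the median, sum and overlaps of the 40 genes. Python 3.11.15 with Matplotlib 3.10.9 drew the figures. Lists held 4 atrial and 5 blood genes besides those described. The blood genes summed to between 712 and 1332 CPM in the vehicle-treated and between 770 and 1627 CPM in the caffeine-treated hearts.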

Additional observations from a re-analysis of the deposited data

How the results depend on the processing

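Under all 12 alternatives 0 of the 40 vascular genes passed the thresholds, with the smallest adjusted p of any of them between 0.202 (no filter, edgeR quasi-likelihood test) and 0.603 (without vehicle replicate 2), while the number of all genes called ranged from 4 to 240 around 14, and with library size alone 12 were higher and 15 lower, against 11 and 3. Genes with intervals inside 1.5-fold numbered between 25 and 37, the former without caffeine replicate 2. Genes whose hearts did not overlap numbered between 6 and 13 with 1 heart left out, as fewer hearts must overlap less: 13 without vehicle replicate 1, beside 25.6% of all tested genes, and 6 without vehicle replicate 3, beside 24.8%. At an unadjusted p below 0.05 there were 7 of the 40 without a filter (7.99% of all genes), 5 with library size alone (11.4%) and 6 without vehicle replicate 1 (9.18%), against 3 (8.82%). The median log2 fold change was -0.088 with library size alone, which moved the median of all genes to -0.084 as well, and ran from -0.061 (without vehicle replicate 1) to 0.057 with 1 heart left out. With library size alone the median was also -0.12 for the arterial, venous and endocardial list and -0.032 for the further endothelial list. With 1 heart left out the latter ran from -0.025 (without caffeine replicate 1) to 0.094, and the further mural list from -0.13 (without caffeine replicate 1) to 0.054. In the fibroblast list 1 gene, Col3a1, was called with no filter, with edgeR's exact test and with DESeq2, and in the macrophage list 1 gene, Adgre1, with no filter and with the exact test; the cause was not tested. Signs changed in at least 1 alternative for 21 of the 40 genes, none of them above 0.14 in absolute log2 fold change in the full comparison, and 19 genes kept theirs throughout. With library size alone the values became -0.083 (Dll4), -0.075 (Erg), -0.024 (Mmrn2), -0.075 (Nos3), -0.022 (Pecam1), -0.056 (Rgs5) and -0.038 (Tek). With no filter they became -0.014 (Dll4), -0.0079 (Erg) and -0.0087 (Nos3). With 1 heart left out the values ran from -0.38 to 0.21 for Angpt2, -0.15 to 0.53 for Aplnr, -0.13 to 0.065 for Cdh5, -0.088 to 0.091 for Dll4, -0.05 to 0.027 for Ednrb, -0.053 to 0.089 for Erg, -0.021 to 0.25 for Fli1, -0.27 to 0.17 for Nos3, -0.20 to 0.074 for Notch1, -0.068 to 0.11 for Nrp1, -0.10 to 0.046 for Nrp2, -0.13 to 0.44 for Plvap, -0.05 to 0.11 for Rgs5, -0.023 to 0.21 for S1pr1, -0.14 to 0.035 for Sox18, -0.41 to 0.10 for Sox7, -0.034 to 0.14 for Tek, -0.12 to 0.12 for Tie1 and -0.18 to 0.69 for Vwf. Replicate numbers 1 to 3 recur in both treatments. Across genes, the deviations of equally numbered hearts had correlations of 0.045, -0.03 and -0.0375, so the numbers were not taken as a pairing, and not every heart correlated best with its own number. With the replicate number as a block 0 of the 40 genes and 40 of all genes were called, and Cdh5 (0.005) and Nos3 (-0.019) changed sign.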

Other observations

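Outside the 40 vascular genes, the fibroblast genes leaned one way. All 8 fibroblast genes had positive log2 fold changes with a median of 0.29, beside 50.2% positive among all tested genes. An unadjusted p below 0.05 was found for 5 of the 8, beside 8.82% of all tested genes (4.42% higher). The list was chosen with earlier results known, and its genes are not independent samples. Col3a1, the chain of type III collagen found around vessels and muscle fibres, read 103, 136 and 83.9 CPM in the vehicle-treated and 180, 148 and 208 CPM in the caffeine-treated hearts. Every caffeine-treated heart was higher (log2 fold change 0.73, SE 0.17, edgeR quasi-likelihood adjusted p = 0.189). The 8 macrophage genes had a median of 0.38 and values from 0.053 (Cd68) to 0.93 (Adgre1), and 1 had an unadjusted p below 0.05. In 2 of the 8 the caffeine-treated hearts were all higher, beside 7.11% of all tested genes. Adgre1 (F4/80), the largest value of the list, read 4.98, 3.88 and 3.95 CPM after vehicle and 9.24, 5.76 and 9.62 CPM after caffeine (adjusted p = 0.226, same test). Both genes are shown as the largest values of their lists.

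Vehicle replicate 1 was the lowest of the 6 hearts for 17 of the 40 vascular genes and the highest for 4 (Vwf, Plvap, Angpt1 and Sox17). Caffeine replicate 3 was the lowest for 11, and each other heart for 3. Besides Vwf (86.6 CPM against at most 67.2 CPM in any other heart) vehicle replicate 1 was the highest heart for Plvap (14.2 CPM against at most 11.6 CPM), a diaphragm protein of fenestrated and venous endothelium, for Cytl1 (24.2 CPM against at most 14 CPM) and Npr3 (45.6 CPM against at most 39.1 CPM), both enriched in endocardium, and for Rgcc (115 CPM against at most 61.7 CPM). Among the genes for which it was lowest were Aplnr (11.7 CPM), Sox7 (19.7 CPM), Cav1 (297 CPM) and Cdh5 (148 CPM). With 3 hearts a treatment no outlier test was made, and these genes were picked after their values were seen.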
